A study of Mus musculus with 6 samples.

Results

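Of the 5752 Gli3 peaks called in the whole face, 901 share at least 1 bp with a Gli3 peak of the mandibular prominence (MNP) and no bp with any Hand2 peak of the MNP. These 901 peaks, called members below, were chosen by the positions of the peaks in the 3 lists, so overlap and distance between the lists describe them and are not tested. The other whole face peaks comprise 1261 that touch both a Gli3 MNP peak and a Hand2 peak (peaks with Hand2), 2115 that touch neither (face-only peaks) and 1475 that touch Hand2 but no Gli3 MNP peak. In the paper the whole face comprises the frontonasal, maxillary and mandibular prominences, so it includes the MNP. Face-only thus means absent from the MNP lists, and whether Gli3 binds these sites in the MNP was not tested. Hand2 peaks are known here for the MNP alone. The data are ChIP-seq peak lists from CD1 mouse embryos, made with an antibody against FLAG. The 3 groups were the whole face of embryos of the genotype Gli3 3XFlagbio, the MNP of the same genotype, and the MNP of embryos of the genotype Hand2 3XFlagbio, each with 2 replicates (6 samples). The tag sits on the endogenous gene, each ChIP used pooled embryonic tissue, and the mock ChIP used wild-type embryos. The labels write both alleles as 3XFlagbio, while the resource list of the study writes the Hand2 allele as Hand2 3xFlag. The labels give E11.5 for all samples, while the text of the series gives E10.5. The lists hold 5427 Gli3 peaks and 59583 Hand2 peaks in the MNP. Because the 2 replicates of a group were merged into 1 list, the spread between embryos cannot be given for any value. The tests compare numbers of peaks, which are not replicates of embryos. The number of reads behind a peak is unknown, and intervals cover counting error only.

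Gli3 is a zinc finger transcription factor (TF) that carries the Hedgehog signal to the genome, as a repressor where the signal is low and as an activator where it is high. Gli TFs bind a short Gli-binding motif (GBM), of which GACCACCC is the canonical form (cGBM) and GACCTCCC a divergent form (dGBM). Hand2 is a bHLH TF of the distal mandible that binds E-boxes, sequences of the form CANNTG, of which CAGATG is the Hand-type E-box. Several genes of the Hedgehog pathway, such as the receptor gene *Ptch1* and *Gli1*, are themselves induced by the signal.

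To show what these peaks look like, the members closest to 3 Hedgehog genes that hold a cGBM are printed first, from the plus strand of mm10 with the motif in capitals (GGGTGGTC is GACCACCC on the minus strand). They are a peak 1112 bp from the transcription start site (TSS) of the D-type cyclin gene *Ccnd2* (chr6:127153203-127153408), a peak 3553 bp from the TSS of the forkhead gene *Foxf1*, in an intron of the gene model Gm20388 (chr8:121080729-121080937) and part of a peak 5716 bp from the TSS of the forkhead gene *Foxd2* (chr4:114903172-114903358). Each holds a single cGBM.
Ccnd2 peak: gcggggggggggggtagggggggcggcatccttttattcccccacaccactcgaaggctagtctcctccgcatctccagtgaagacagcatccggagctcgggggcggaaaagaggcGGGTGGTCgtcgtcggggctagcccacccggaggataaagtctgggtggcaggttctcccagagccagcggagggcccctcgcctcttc
Foxf1 peak: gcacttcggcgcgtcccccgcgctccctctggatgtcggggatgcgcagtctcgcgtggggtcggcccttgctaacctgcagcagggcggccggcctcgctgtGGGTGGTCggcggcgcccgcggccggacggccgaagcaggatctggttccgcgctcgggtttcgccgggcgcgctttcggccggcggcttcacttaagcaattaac
Foxd2 peak, part: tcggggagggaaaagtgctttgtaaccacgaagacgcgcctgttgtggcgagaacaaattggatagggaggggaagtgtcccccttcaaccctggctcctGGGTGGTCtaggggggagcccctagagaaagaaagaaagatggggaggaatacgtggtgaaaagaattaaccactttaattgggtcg

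The 2 members with the most cGBMs are printed because their copies stand in tandem repeats. One lies between genes, with *Six2*, which encodes a homeodomain TF of the facial mesenchyme, as a neighbor at 215807 bp, and its copies lie within chr17:85903921-85904166. Its 8 copies all point the same way, in steps of 22 bp except for 1 step of 66 bp. That step spans 2 units with GAACACCC, which differs from the cGBM by C3A (positions are counted from 1 at the first base of GACCACCC, with the base of the cGBM first). The other lies 50921 bp from the TSS of *Rad21*, which encodes a cohesin subunit, and its 6 copies, within chr15:51940765-51940927, are spaced at 25 bp. A member on chromosome 7 (34431126 to 34431521) held 5 copies in steps of 16 and 32 bp. Of the other members, 9 held 2 copies and 274 held 1. The numbers against the mock ChIP of the 3 members with the most copies, described below, lie between 1879 and 3861. They are above the medians of members (1487 and 1541 in the replicates). The medians of all whole face peaks are 3282 and 3103.5.
8 copies: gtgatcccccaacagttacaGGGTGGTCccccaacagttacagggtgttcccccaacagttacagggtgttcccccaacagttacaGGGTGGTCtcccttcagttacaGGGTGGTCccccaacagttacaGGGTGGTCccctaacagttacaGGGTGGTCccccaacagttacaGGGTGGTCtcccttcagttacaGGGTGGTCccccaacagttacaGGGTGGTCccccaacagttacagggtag
6 copies: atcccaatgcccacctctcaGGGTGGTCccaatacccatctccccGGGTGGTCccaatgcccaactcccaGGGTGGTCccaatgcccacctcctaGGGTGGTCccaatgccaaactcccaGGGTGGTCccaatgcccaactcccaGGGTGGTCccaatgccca

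Members without a cGBM are represented by those with a dGBM closest to a listed gene, again with the motif in capitals. Part of a peak 25373 bp from the TSS of *Pax7*, a paired box gene of muscle progenitors (chr4:139858819-139859026), holds GACCTCCC on the minus strand, and a peak in an intron of *Col19a1* (chr1:24569659-24569865), 392152 bp from the TSS of the cartilage collagen gene *Col9a1*, holds it on the plus strand.
Pax7 peak, part: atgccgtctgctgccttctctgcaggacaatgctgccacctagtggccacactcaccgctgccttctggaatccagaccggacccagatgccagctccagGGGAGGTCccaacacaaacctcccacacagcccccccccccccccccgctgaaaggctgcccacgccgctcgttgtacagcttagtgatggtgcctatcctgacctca
Col9a1 peak: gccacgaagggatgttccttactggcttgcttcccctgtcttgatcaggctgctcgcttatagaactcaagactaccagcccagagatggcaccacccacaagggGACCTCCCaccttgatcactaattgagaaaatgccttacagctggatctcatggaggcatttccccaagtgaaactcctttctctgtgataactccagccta

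The cGBM was present in 286 members (31.7%, 95% Wilson interval 28.8 to 34.8%), compared to 19.8% of all whole face Gli3 peaks. It was more frequent in members than in peaks with Hand2 and in face-only peaks. The 1475 peaks that touch Hand2 but no Gli3 MNP peak were not compared here or below, but they are part of all whole face peaks. Peaks with Hand2 held it in 225 of 1261 cases (17.8%), a difference of 13.9 percentage points (interval 10.2 to 17.6, q = 1.6e-12 by Fisher's exact test, two-sided and adjusted over 30 motif comparisons by Benjamini-Hochberg). Face-only peaks held it in 516 of 2115 cases (24.4%), a difference of 7.34 points (interval 3.84 to 10.9, q = 0.00014). The second difference was 4.70 points (q = 0.131) when peaks narrower than the median of 222 bp were left out. As a background, windows of the same width 2 kb away on either side of the members held a cGBM in 12 of 1802 cases (0.666%). These windows were not matched to the peaks for base composition.

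The base after the cGBM also differed between classes. Of the 286 members with a cGBM, 229 (80.1%) held GACCACCCA, compared to 62.7% of the peaks with Hand2 that hold a cGBM (difference 17.4 points, interval 9.54 to 25.1, Fisher's exact q = 3.3e-05 over 2 comparisons) and 81.4% of the face-only peaks that hold one (q = 0.64). The difference from face-only peaks was -1.32 points, with an interval from -7.23 to 4.21. This comparison was chosen after the motif counts had been seen. Across all 437 occurrences of GACCNCCC in members, the fifth base was A in 71.2%, T in 19.9%, C in 5.26% and G in 3.66%. In peaks with Hand2, the same base was A in 58.9%, T in 20.2%, G in 11.1% and C in 9.82% of 387 occurrences, and in face-only peaks it was A in 73.8% of 717. These shares count occurrences, of which a peak can hold several, and were not tested.

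The dGBM, counted here as the exact GACCTCCC, was present in 77 members (8.55%), compared to 6.17% of all whole face Gli3 peaks. The paper classes peaks by a looser rule, no cGBM and at least CCTCC, so these shares cannot be set against its own. The share was 6.29% in face-only peaks (difference 2.26 points, Fisher's exact q = 0.0476) and 6.11% in peaks with Hand2 (difference 2.44 points, interval 0.234 to 4.77, q = 0.0534). The first difference lost its call in 6 of the 8 alternatives run, with q up to 0.252. Only 8 members held both the cGBM and the dGBM.

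The Hand-type E-box CAGATG was less frequent in members than in both classes compared. It was present in 145 members (16.1%), compared to 23.3% of all whole face Gli3 peaks and 19.3% of the flanking windows. Peaks with Hand2 held it in 25.1% of cases (members minus peaks with Hand2 -8.97 points, interval -12.3 to -5.53, Fisher's exact q = 2.2e-06). Because Hand2 peaks split these classes and Hand2 binds E-boxes, the rule itself favors this direction, and the test is not independent of it. Face-only peaks held it in 20.4% of cases (difference -4.28 points, q = 0.0134). Without promoter peaks the second difference was -1.70 points (q = 0.475).

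Of 24 comparisons of the other 12 motifs, 13 passed the test. They include the longer GACCACCCA, which contains the cGBM, and GACCNCCC, which contains the cGBM and the dGBM, both more frequent in members than in either class (25.4% and 42.7% of members, Fisher's exact q at most 0.00226). CANNTG, which contains both E-boxes named here, was present in 68.1% of members and 73.7% of face-only peaks (q = 0.00557). Among bHLH motifs, the E-box CAGCTG was present in 19.8% of members and 24.5% of peaks with Hand2 (Fisher's exact q = 0.0182). TAATTA, a core bound by homeodomain TFs, was present in 4.55% of members, compared to 7.14% of peaks with Hand2 (q = 0.0238) and 10.1% of face-only peaks (q = 1e-06). GGAATG, bound by TEAD factors, was present in 10.7% of members and 16.5% of peaks with Hand2 (q = 0.00037). The Sox-type sequences ACAATG and ACAAAG were less frequent in members than in face-only peaks (8.66% and 11.8% for the first, q = 0.0198). CCGGAAG, bound by ETS factors, was present in 7.55% of members and 2.79% of face-only peaks (q = 1.1e-07), and CCCCGCCC, bound by Sp and KLF factors, in 9.77% and 4.96% (q = 7.4e-06). Neither of the last 2 differed from peaks with Hand2 at the threshold (q = 0.192 and 0.131). The AP-1 sequences TGAGTCA and TGACTCA and the forkhead sequence TGTTTAC passed in no comparison. The median GC content was 54.9% in members, 55.3% in peaks with Hand2 and 49.1% in face-only peaks, and its part in these differences was not tested. Promoter peaks, within 1 kb of a TSS, made up 30.4% of members and 12.2% of face-only peaks. CCCCGCCC was present in 20.8% of promoter members and 19.5% of promoter face-only peaks, and in 4.94% and 2.96% of distal ones. For CCGGAAG these shares were 16.4% and 11.3%, and 3.7% and 1.6%. The part of the promoter share in the differences was not tested.

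**Figure D1:**
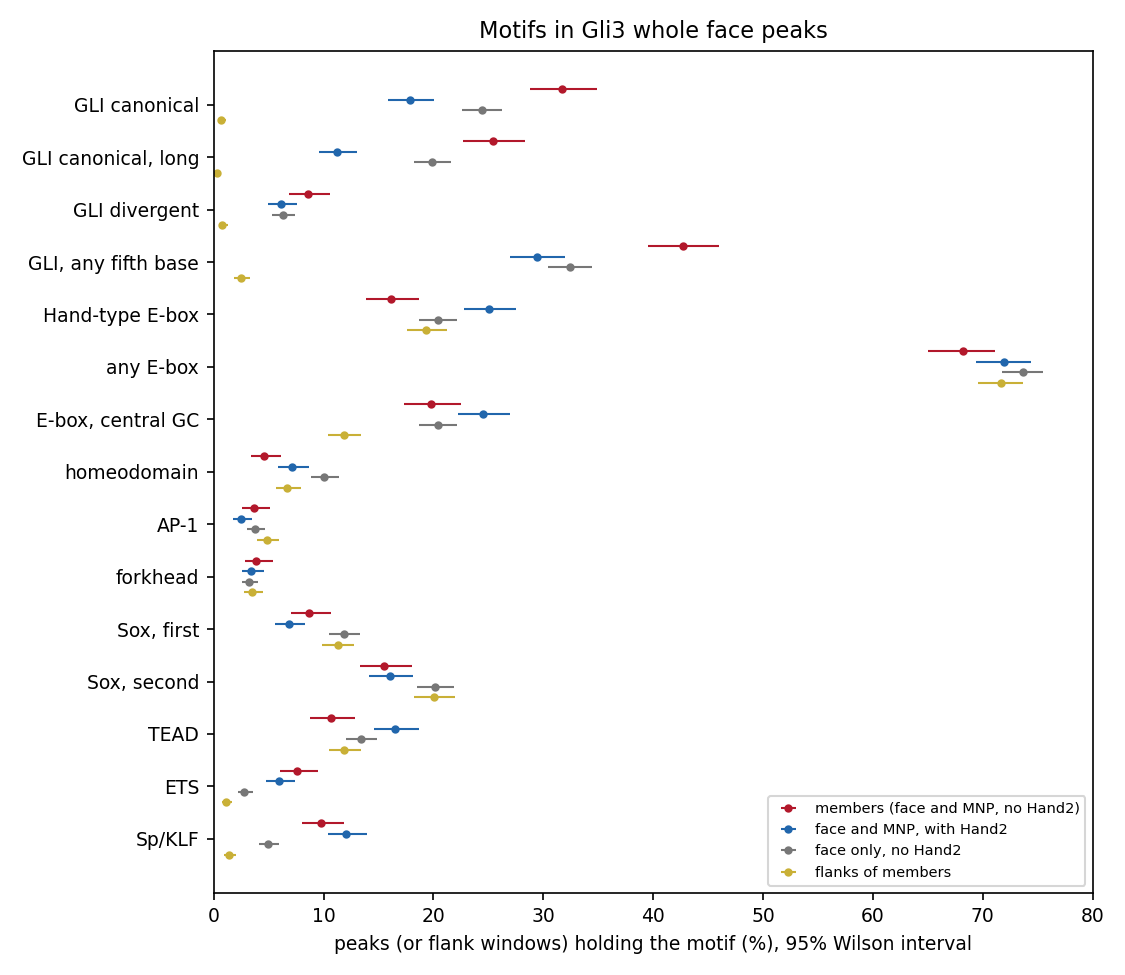
Share of peaks (%, horizontal axis) that hold each of 15 motifs (rows), with 95% Wilson intervals, in 901 members, 1261 peaks with Hand2, 2115 face-only peaks and 1802 flanking windows of members. The canonical GLI motif was present in 31.7% of members and 0.666% of flanks, while the Hand-type E-box was present in 16.1% of members and 25.1% of peaks with Hand2.

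Members and flanks were also searched for the 24 8-mers that differ from the cGBM by 1 base, a search chosen after the first results were seen. The 4 most frequent in members were GGCCACCC (A2G, 113 members, 12.5%), GCCCACCC (A2C, 102 members, 11.3%), GACCACAC (C7A, 82 members, 9.10%) and the dGBM GACCTCCC (A5T, 77 members, 8.55%). In the flanks these were present in 0.999%, 1.28%, 0.555% and 0.777% of windows. Summed by position, a substitution at position 2 was found in 24.4% of members and 2.72% of flanks, at position 5 in 12.4% and 1.83%, at position 7 in 10.7% and 0.999%, and at position 8 in 9.77% and 2.05%. Substitutions at positions 3, 4 and 6 were close to the flanks (2.22% and 2.22%, 1.55% and 1.05%, 1.55% and 1.89%). Positions 3, 4 and 6, all C in the cGBM, were thus those at which a changed base was rarest in members.

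**Figure D2:**
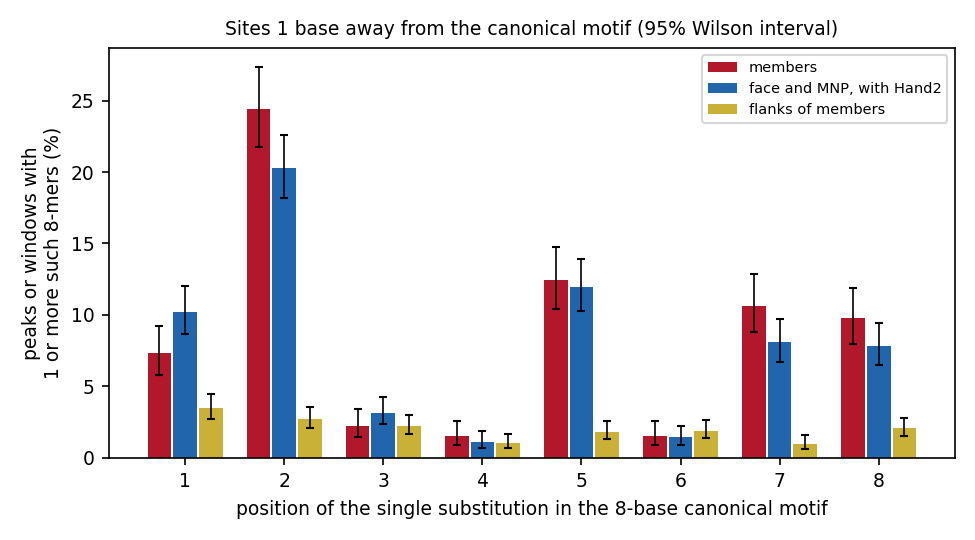
Share of members, peaks with Hand2 and flanking windows (%, vertical axis) that hold an 8-mer with 1 substitution in the canonical motif, by the position of that substitution (horizontal axis), with 95% Wilson intervals. Position 2 led in members with 24.4%, while positions 3, 4 and 6 stayed close to the flanks.

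Compared between classes, few of these 8-mers differed. With adjustment over 50 comparisons, TACCACCC (G1T) was less frequent in members (1.66%) than in peaks with Hand2 (4.68%, two-sided Fisher's exact test, q = 0.00169), and GACCACCG (C8G) was more frequent in members (2.55%) than in face-only peaks (0.851%, q = 0.00571). The cGBM itself passed against both classes, and no other 8-mer of the set passed against either. GGCCACCC was present in 9.36% of peaks with Hand2 (difference 3.18 points, q = 0.152) and 12.3% of face-only peaks. GACCACAC was present in 7.38% and 8.89%.

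Together, the cGBM and the 4 variants cover 609 members (67.6%), compared to 48.0% of peaks with Hand2 and 58.0% of face-only peaks. Because the 4 variants were picked by their frequency in members, these shares are a description. Of the members, 286 held a cGBM, 323 held a variant without a cGBM and 292 held none of the 5. The last set lay within 1 kb of a TSS in 41.8% of cases, compared to 18.2% of the members with a cGBM. CCCCGCCC was present in 12.3% of members with none of the 5 and 6.99% of those with a cGBM. Short windows of 26 bases from members with low numbers (described below) show the cGBM and 3 of its variants in capitals. They are chr7:139299590-139299615, in a peak 51118 bp from the TSS of *Pwwp2b*, chr4:150914416-150914441 at *Park7*, chr9:73103640-73103665 (GGCCACCC), chr6:116208053-116208078 at *Washc2* (GCCCACCC) and chr1:93478324-93478349 at *Hdlbp* (GACCACAC). These windows were chosen after the values were seen.
Pwwp2b peak: tgccaccttGGGTGGTCttcccttag
Park7 peak: tcgggggtgGACCACCCagaacgcct
GGCCACCC peak: ccgcaaggcGGCCACCCagccggctc
Washc2 peak: caccgcgctGGGTGGGCagtgtagta
Hdlbp peak: tgggctcacGACCACACaggaaggcc

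The motifs did not lie at the centre of the whole face peaks. In members, the middle of the cGBM lay at a median of 32.0 bp from the peak centre toward higher coordinates (quartiles 4.50 and 66), and 251 of 311 occurrences (80.7%) lay on that side. Both strands of the motif gave a like value, with a median of 32.5 bp for 133 occurrences on the plus strand and 30.8 bp for 178 on the minus strand. The same side was favored in peaks with Hand2 (82.0% of 228) and in face-only peaks (78.4% of 529). The 4 variants were displaced in the same direction, with 84.0% of GGCCACCC, 70.4% of GCCCACCC, 73.0% of GACCACAC and 79.3% of GACCTCCC occurrences on the side of higher coordinates. CAGATG (51.2% of 162) and CCCCGCCC (48.7% of 117) were evenly spread. In the Gli3 MNP peaks that members touch, 49.0% of 353 cGBM occurrences lay on that side, at a median of -0.50 bp. The centre of the MNP peak also lay at the higher coordinate in 693 of 901 pairs (76.9%), with a median offset of 44.0 bp.

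The displacement was present in the 3 classes of whole face peaks examined and not in the MNP list, and what gave rise to it was not tested. Moving every whole face peak by 30 bp toward higher coordinates, an alternative chosen after this was seen, left 899 members, of which 893 were members before. The cGBM differences were then 14.8 points from peaks with Hand2 (Fisher's exact q = 7.2e-14) and 7.33 points from face-only peaks (q = 0.00017).

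**Figure D3:**
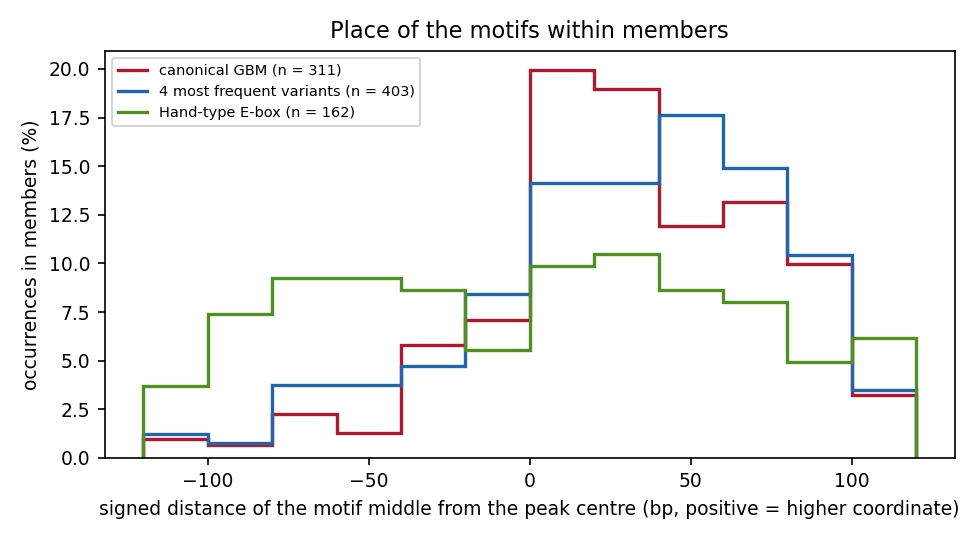
Signed distance in bp from the centre of the member to the middle of the motif (horizontal axis, positive toward higher coordinates) for 311 canonical motifs, 403 occurrences of the 4 most frequent variants and 162 Hand-type E-boxes, as a share of occurrences per 20 bp (%, vertical axis). The canonical motif has a median of 32.0 bp, with 80.7% of occurrences on the positive side, and the E-box is spread evenly.

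Each whole face entry carries 4 names, 1 for each replicate against the mock ChIP and against the input, and each name holds a number. The numbers start at 1, do not follow the genome and agree between replicates, with a Spearman correlation of 0.825 over the 901 members and 0.790 over all 5752 peaks (numbers against the mock, which come from different samples but the same merged peaks). They thus resemble an order within each replicate's list, but no source used here states what orders them, so they are reported as numbers and not as a strength. The median number of members was 1487 in replicate 1 and 1541 in replicate 2. Peaks with Hand2 had medians of 1367 and 1313, and face-only peaks 4757 and 4248. Members made up 34.2% (197) of the 576 whole face peaks with the lowest numbers in replicate 1 and 3.30% (19) of the 575 with the highest, while they are 901 of all 5752. Peaks with Hand2 made up 345 of the same 576 and 16 of the same 575, and face-only peaks 20 and 355.

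**Figure D4:**
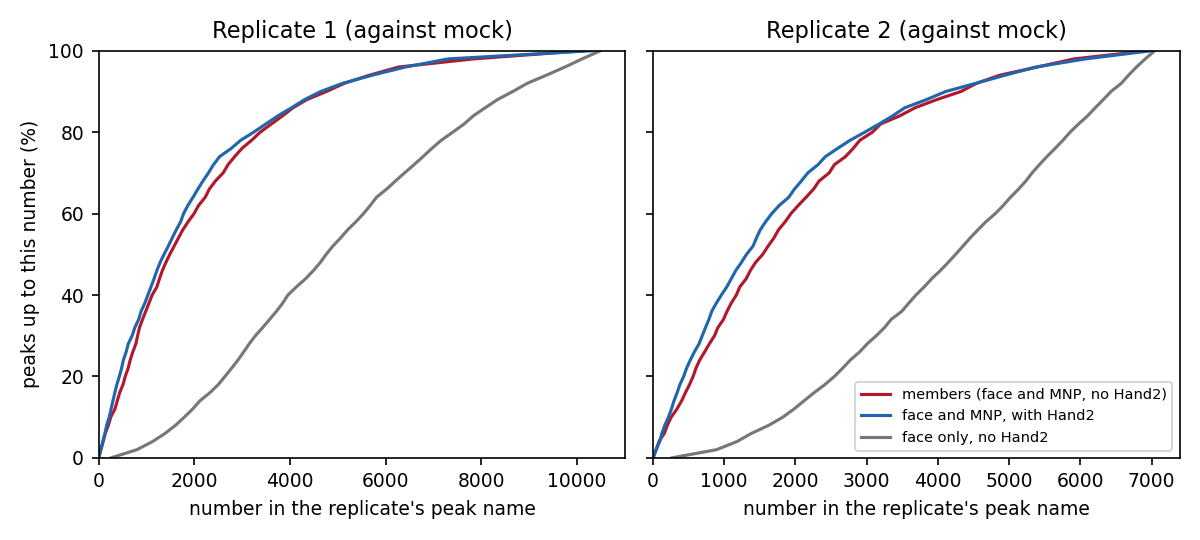
Cumulative share of peaks (%, vertical axis) up to each number in the peak names (horizontal axis) for replicate 1 and replicate 2 against the mock ChIP. Members (medians 1487 and 1541) run close to peaks with Hand2, and face-only peaks (medians 4757 and 4248) lie at higher numbers.

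In members, the cGBM was most frequent at low numbers. When members were split into 5 groups of equal size by the numbers of replicate 1, the share with a cGBM was 42.0%, 36.1%, 35.6%, 26.1% and 18.9% from the lowest to the highest group. By replicate 2 it was 42.0%, 32.8%, 33.9%, 24.4% and 25.6%. Peaks with Hand2 went from 29.2% to 11.9% by replicate 1 and from 28.5% to 11.1% by replicate 2. Face-only peaks showed no such fall, with 20.6% in the lowest and 25.5% in the highest group by replicate 1 and 18.2% and 29.3% by replicate 2. Promoter peaks were more frequent at high numbers, with 27.1% of members in the lowest and 41.7% in the highest group by replicate 1, and 30.4% and 37.8% by replicate 2. Peaks with Hand2 showed a like rise, from 22.1% to 39.3% by replicate 1 and from 26.5% to 34.1% by replicate 2. Face-only peaks went from 9.22% to 11.6% and from 14.9% to 9.93%. These shares were not tested. Among peaks numbered up to 3000 in both replicates, an alternative chosen after the numbers were seen, the cGBM exceeded peaks with Hand2 by 15.5 points (Fisher's exact q = 4.8e-10) and face-only peaks by 14.4 points (q = 1.4e-05).

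**Figure D5:**
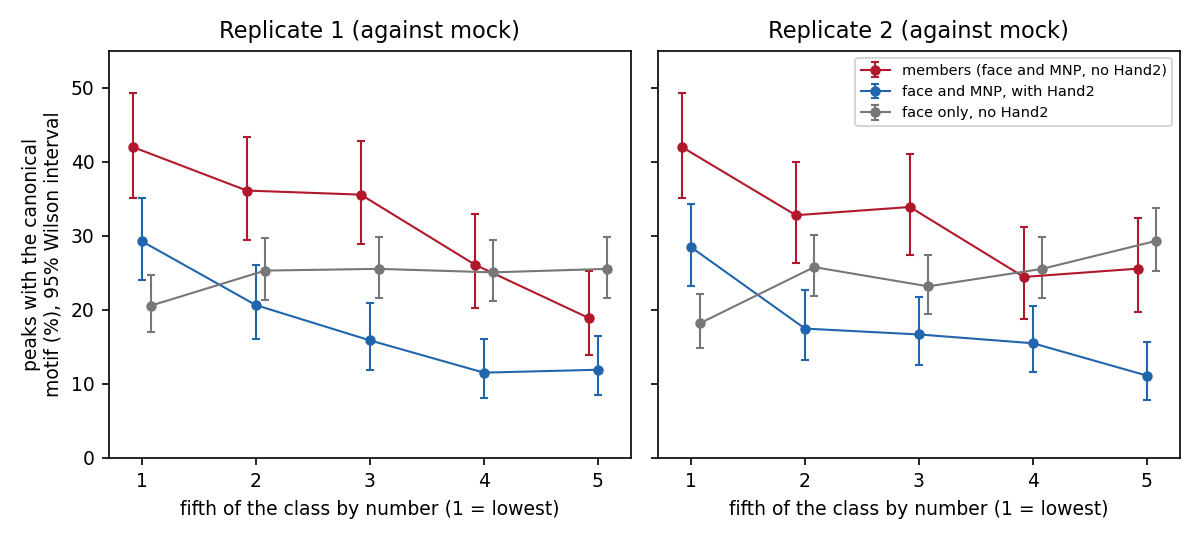
Share of peaks with the canonical motif (%, vertical axis, 95% Wilson intervals) in 5 groups of each class by number (horizontal axis, 1 is lowest), for replicate 1 and replicate 2 against the mock ChIP. In members the share falls from 42.0% in the lowest group to 18.9% and 25.6% in the highest.

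Among the lowest numbers of members were those of a peak between genes on chromosome 7 (139299498 to 139299702, numbers 2 and 1 in the replicates) and of a peak over the start of *Park7*, which encodes a protein that protects cells from oxidative stress (numbers 3 and 3), both with a cGBM. The peak at *Gli1* had the numbers 6 and 33 and no cGBM. These members were named after their numbers were seen.

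Relative to genes, 409 members lay between genes, 351 in introns, 88 in UTRs and 53 in coding exons, by the place of their midpoint. A TSS of a protein-coding gene lay within 1 kb of 274 members (30.4%, interval 27.5 to 33.5%), compared to 18.8% of all whole face Gli3 peaks. Face-only peaks lay there in 12.2% of cases (difference 18.3 points, interval 15 to 21.6, Fisher's exact q = 7.1e-31). Peaks with Hand2 lay there in 28.9% of cases, and the difference of 1.47 points (interval -2.42 to 5.39) did not pass the test (q = 0.474). With the TSS of every coding transcript in place of that of the gene, which was computed first, this difference was 4.24 points and passed (q = 0.0428), so the call depends on the definition.

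Motifs differed between promoter members and distal members. Among the 627 distal members, 37.3% held a cGBM, compared to 19.0% of the 274 promoter members (promoter minus distal -18.3 points, interval -24.0 to -12.1, Fisher's exact q = 1.1e-07 over 15 motifs). CAGATG was present in 19.8% of distal and 7.66% of promoter members (q = 7e-06), while CCGGAAG (3.67% and 16.4%, q = 2.3e-09) and CCCCGCCC (4.94% and 20.8%, q = 3.4e-11) were more frequent at promoters. The dGBM was present in 8.61% of distal and 8.39% of promoter members, with an interval of promoter minus distal from -3.90 to 4.13 points. The odds of a cGBM in members relative to peaks with Hand2 were 2.51-fold in distal and 1.38-fold in promoter peaks, and for face-only peaks the odds ratios were 1.74 and 1.17. In a logistic model with class, promoter and their product, chosen after the counts were seen, neither pair of odds ratios differed at the threshold (Wald test adjusted over 6 interactions, q = 0.0874 and 0.312).

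Members touched 895 Gli3 MNP peaks, and 558 members (61.9%) lay entirely within theirs. Of the 311 cGBM occurrences in members, 309 lay in the stretch shared with the MNP peak, which holds 92.2% of the bases of members. The distance to the nearest Hand2 peak had a median of 7057 bp (quartiles 1526 and 21680 bp), with 180 members (20.0%) within 1 kb and 16 farther than 100 kb. The rule excludes Hand2 peaks from the whole face peak only, so the MNP peak a member touches can itself overlap one. How many do so was not counted. Just inside the rule, a member at chr3:96501131-96501336 shared 8 bp with its MNP peak, and members near the TSS of *Stx5a* (chr19:8741096-8741310) and *Psmd10* (chrX:140956331-140956658) began 2 bp from a Hand2 peak. Just outside it, a peak at chr17:49044148-49044357 was left out for 8 bp shared with Hand2, and a peak at chr6:127152452-127152710, 388 bp from the TSS of *Ccnd2*, ended 1 bp short of an MNP peak.

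Each member was assigned its nearest protein-coding genes, upstream and downstream, which gave 1596 of 21951 genes (7.27%). Of 36 genes in 4 Hedgehog lists, 13 (36.1%) were next to a member, and of 165 genes in 9 lists for other signals and cell types, 28 (16.97%) were. No gene list was tested, and the length of the stretch around each gene, which sets how often a peak is next to it, was not examined. The 13 Hedgehog genes were next to 20 members, of which 10 held a cGBM and 3 lay at a promoter.

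No gene of 6 for Hedgehog ligands and their release was next to a member. Of 8 receptors and coreceptors, 5 were. *Ptch1*, the principal receptor gene, had a member in its intron 8559 bp from the TSS (chr13:63564889-63565189, numbers 2476 and 2689) without a cGBM. The MNP peak it touches (chr13:63562544-63567174) holds 2 cGBMs. A Hand2 peak lies 597 bp from the member and thus overlaps that same MNP peak. Another member next to *Ptch1* held a cGBM and lay 146111 bp from the TSS (chr13:63719590-63719828, numbers 341 and 277). This peak lies closer to the TSS of *Ercc6l2*, at 95531 bp. *Smo*, which encodes the transducer that the receptors hold in check, had a member with a cGBM 16464 bp from its TSS (chr6:29718922-29719157, numbers 107 and 130). *Gas1*, a coreceptor gene, was next to 3 members, 92226, 249399 and 369812 bp from its TSS, and each of them held a cGBM. *Hhip*, which encodes a decoy that binds the ligands, had a member in its intron without a cGBM (chr8:80030493-80030759, 27380 bp from the TSS).

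Of 11 Gli factors and transducers, *Gli1* alone was next to a member. That peak (chr10:127341509-127341711) lies in the UTR of *Gli1*, 364 bp from the TSS, and 1265 bp from a Hand2 peak. It holds no cGBM and none of the 4 variants, while the MNP peak it touches holds 2 cGBMs.

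Of 11 Hedgehog targets, 7 were next to a member, all of them forkhead or cyclin genes. Besides *Ccnd2*, *Foxf1* and *Foxd2*, these were *Foxl1* (403 bp from the TSS, in an intron of Gm20388, with GCCCACCC), *Foxf2* (2583 bp, with GACCACAC), *Ccnd1* (2311 bp, with neither the cGBM nor a variant) and *Foxd1* (37073 bp, with neither). The *Ccnd2* member lies 87 bp from a Hand2 peak and the *Foxf1* member 3202 bp. The MNP peak that the *Ccnd2* member touches overlaps the Hand2 peak near it. Of the closest members of the 13 Hedgehog genes, 6 held a cGBM, 2 a variant without it and 5 neither. The paper tests a region downstream of *Foxd1* whose name gives a distance close to that of the *Foxd1* member. It describes Gli3 and Hand2 binding at this locus, and a dGBM, an E-box and synergistic activation for that region. In the lists used here, the *Foxd1* member holds no exact GACCTCCC and lies 1475 bp from a Hand2 peak. The paper looked for candidate regions in pooled replicates, while these lists hold peaks shared by both replicates, so the Hand2 calls are not like for like. The paper's rule for a dGBM asks for at least CCTCC, which is looser. Whether the member and that region are the same was not tested.

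Among lists of cell types and other signals, mandibular patterning had 6 of 31 genes next to a member. The closest were *Dlx1*, a homeobox gene (2133 bp, with GCCCACCC), *Six2* (42379 bp) and the bHLH gene *Hand1* (51307 bp, with GGCCACCC). Cartilage had 5 of 17, led by *Col2a1*, the gene for type II collagen, with a member 12 bp from the TSS and no cGBM, *Sox9*, which directs chondrocyte fate (2591 bp, in a coding exon, with GGCCACCC), and *Sox5* (160826 bp). Bone had 4 of 18, led by *Runx3* (20138 bp), *Alpl* (43986 bp) and *Runx2*, which directs osteoblast fate (257794 bp, in an intron of *Supt3*, with a cGBM). Skeletal and tongue muscle had 6 of 20, led by *Met*, the receptor gene for hepatocyte growth factor (83 bp, with a cGBM and a CAGATG, 513 bp from a Hand2 peak) and *Tnnt1* (4858 bp). Wnt, Bmp and Fgf signals had 3 of 25, *Chrd* (14988 bp), *Spry1* (219719 bp) and *Dkk1* (254627 bp).

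Lists for cells that are not of the facial mesenchyme gave 1 or 2 genes each. They were 1 of 16 for neurons (*Rbfox3*), 2 of 14 for epithelium (*Esrp1* and *Dsp*) and 1 of 15 for blood and endothelium (*Ptprc*). Liver, a tissue that was not sampled, gave 1 of 13 (*Apob*). These shares run from 6.25% to 14.3%, next to 7.27% of all genes, and their range overlaps that of the lists above. Of the closest members of the 28 genes in these 9 lists, 4 held a cGBM, 13 a variant without it and 11 neither.

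A few genes had several members. *Trib2*, which encodes a pseudokinase, was next to 5, the closest in its UTR 337 bp from the TSS and 80 bp from a Hand2 peak, and a single one of them held a cGBM. The MNP peak that the closest one touches overlaps that Hand2 peak. *Ercc6l2*, *Has2*, *Sox4* and *Teddm3* were next to 4 each. At *Has2*, the gene for a hyaluronan synthase, 3 members lay within 1 kb of the TSS (chr15:56693962-56694195, chr15:56695025-56695229 and chr15:56695286-56695657), none with a cGBM, the first with GACCACAC and the second with GCCCACCC. They lay 103, 33 and 294 bp from a Hand2 peak. The MNP peak that the first of them touches overlaps the Hand2 peak near it. The member farthest from *Has2*, at 113274 bp, held a cGBM. Of the members next to *Sox4*, an HMG-box gene, 3 held a cGBM, and so did 3 of those next to *Teddm3*. One member counted for *Ercc6l2* is the distal one also counted for *Ptch1* above. Joined within 10 kb, members formed 838 single peaks, 30 pairs and 1 run of 3, the one at *Has2*.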

How the data were processed

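The authors fixed pooled tissue for 20 min in 1% formaldehyde, sequenced 75 bp reads, mapped them to mm10 (GRCm38) and merged the peaks of both replicates. BWA, bedtools and HOMER are named in the submitters' notes, with no version, and no source used here names the caller of the whole face list. The deposited values are positions and peak names, with no count, score or p-value.

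Sequences came from GRCm38 and genes from GENCODE M21 (21951 protein-coding genes). Motifs were searched as exact sequences on both strands. Shares were compared by two-sided Fisher's exact tests with Benjamini-Hochberg adjustment at 0.05 (scipy 1.17.1, statsmodels 0.14.6, numpy 2.4.6, pysam 0.24.0, matplotlib 3.10.9, Python 3.11.15). Shares have 95% Wilson intervals, and differences have Newcombe intervals. Promoter peaks had a gene's TSS within 1 kb of their midpoint. Transcript TSSs were used first and replaced by gene TSSs. The lists were merged over replicates, and depth is unknown. The programs were tested on simulated data.

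Genes named are every Hedgehog gene next to a member, the 3 of each other list closest to one, the 5 with the most members, the members with the most cGBMs, and those nearest the limits of the rule. Other named peaks were picked later and are said to be so. Members and lists were chosen with earlier results of these data known. Alternatives varied the overlap, width, stretch searched, promoters, repeats and gene assignment. Those added later were peak numbers, a 30 bp move and transcript TSSs. Some of the genes that the rule names are not reported here.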

Additional observations from a re-analysis of the deposited data

How the results depend on the processing

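The differences of the cGBM and of CAGATG from peaks with Hand2 kept their direction in every alternative run, and the first kept its call in all 8. For CAGATG, the split by Hand2 peaks favors that direction. With peaks narrower than the median left out, the cGBM difference from face-only peaks was 4.70 points, that of GACCTCCC 1.78 points, and that of CAGATG from peaks with Hand2 -5.36 points, and none of these passed. The GACCTCCC difference from face-only peaks also missed the threshold with Hand2 peaks within 1 kb counted as overlap (2.33 points), in the middle 200 bp (1.83), without promoter peaks (2.1), among peaks numbered up to 3000 (2.53) and after the 30 bp move (2.18). From peaks with Hand2 it passed when 50% of a peak had to be covered (2.62 points) and after the move (2.64), and it was 0.80 points with peaks narrower than the median left out (q = 0.682) and 0.76 points with soft-masked bases not searched (q = 0.52). The CAGATG difference from face-only peaks missed it with Hand2 peaks within 1 kb (-3.22 points), without promoter peaks (-1.70) and among peaks numbered up to 3000 (-4.14).

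The promoter difference from peaks with Hand2 was -2.31 points with Hand2 peaks within 1 kb and -0.80 points for promoters within 500 bp, and it passed within 5 kb (5.87 points) and with transcript TSSs (4.24 points). Without promoter peaks, 8 comparisons of other motifs passed in place of 13. With the single nearest TSS within 100 kb, 9 genes of the other lists were next to a member in place of 28, and 13 Hedgehog genes still were. Of all 21951 genes, 709 were next to a member under this rule, in place of 1596. The cause of these changes was not tested. No paired analysis was possible because both replicates stand in 1 merged list and every entry holds both, which also means that no replicate could be left out.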
